A study of Mus musculus and Rattus norvegicus with 96 samples.

Results

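Ntrk2, 3930402G23Rik and AW549542 are 3 of the 24543 genes listed in the mouse liver count table, and they were picked because their levels were lower in livers of phenobarbital-treated mice (PB) than in livers of vehicle controls (Con). They were chosen by the PB vs Con difference in CPM, which is the count of a gene scaled to the same total in every library, and the PB vs Con values are therefore given as a description with no test. The livers came from 12 male B6C3F1 mice aged 10 to 11 weeks, 6 of which drank water with 600 ppm PB for 7 days while the other 6 drank water without it. From each liver, 4 preparations were sequenced, so that every group below holds the same 6 Con or the same 6 PB mice. Fresh-frozen tissue (FR) was the reference. Pieces of the frozen tissue were later put in 10% buffered formalin (FR > FFPE) or in 70% ethanol as a fixative control (FR > OH), and were then embedded in paraffin. A further piece went straight from the animal into 10% buffered formalin for 18 to 24 h and into paraffin without being frozen (FFPE). RNA of FR was extracted with a homogenization reagent, whereas RNA of the embedded tissue came from sections through a kit for FFPE blocks, so embedding and extraction cannot be told apart in comparisons with FR. The paper also states that fragmentation with heat was shortened for FFPE samples in library preparation. That step cannot be told apart from embedding and extraction either. A liver homogenate or section holds all cell types of the organ, and fewer cells of a type and less RNA per cell cannot be told apart in such samples. For each of the 3 genes, the PB mean was below the Con mean in all 4 preparations, with overlaps of single livers that are given below.

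Phenobarbital is a barbiturate that activates the constitutive androstane receptor of hepatocytes, a nuclear receptor best known for inducing cytochrome P450 genes such as Cyp2b10. Alongside these induced genes, activation of the receptor is known to lower genes of gluconeogenesis and other metabolic pathways. Ntrk2 encodes TrkB, the receptor tyrosine kinase for brain-derived neurotrophic factor, which is best known in neurons, where ligand binding leads to signalling through adaptors to the MAP kinase, PI3 kinase and phospholipase C gamma pathways. 3930402G23Rik and AW549542 are long non-coding RNA genes that carry clone-derived names, and no function is stated for either here.

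Ntrk2 lies on chromosome 13 from 58806569 to 59133970 on the plus strand (GRCm38), a span of 327 kb with protein-coding transcripts, within which RefSeq also places the non-coding gene Gm53063. 3930402G23Rik is a gene of 4.03 kb on chromosome 8, from 10924427 to 10928457 on the minus strand, and the annotation holds it as a long non-coding RNA. AW549542 is on chromosome 5 from 119570129 to 119580358 on the minus strand, 10.2 kb long. It lies inside the span that GENCODE gives to Tbx3os1 on the same strand. RefSeq, the kind of annotation used for the counts, places Tbx3os1 30.9 kb away, and Tbx3os1 is not in the count table. Reads of a transcript as GENCODE draws it cannot be told from those of AW549542 here. The 3 genes are thus on different chromosomes. The 250 bases before the start of Ntrk2 (chr13:58806319-58806568, plus strand) and of 3930402G23Rik (chr8:10928458-10928707, minus strand) are shown because they differ in the density of CG dinucleotides, which stand in capitals. The sequences are those of RefSeq on GRCm38.p6. AW549542 was not among the promoters matched.
Ntrk2: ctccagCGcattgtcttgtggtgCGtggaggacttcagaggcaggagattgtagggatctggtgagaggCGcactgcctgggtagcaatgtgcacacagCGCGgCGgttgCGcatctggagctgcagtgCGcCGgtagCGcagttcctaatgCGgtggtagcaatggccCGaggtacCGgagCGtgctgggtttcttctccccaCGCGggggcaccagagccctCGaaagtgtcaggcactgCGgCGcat
3930402G23Rik: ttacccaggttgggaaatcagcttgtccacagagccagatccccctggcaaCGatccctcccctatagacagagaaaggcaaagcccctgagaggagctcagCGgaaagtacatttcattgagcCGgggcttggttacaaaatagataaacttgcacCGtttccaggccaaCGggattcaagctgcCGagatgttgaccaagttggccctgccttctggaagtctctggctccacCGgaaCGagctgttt
The Ntrk2 window held 19 CG dinucleotides and 62.8% G and C, and 80.3% of all 32851 promoter windows of this length held fewer CG dinucleotides. The 3930402G23Rik window held 8 CG dinucleotides and 53.2% G and C, against medians of 6 and 52.4% over all windows. The motif AGGTCA, the hexamer bound by many nuclear receptors, was searched on both strands and had 0 matches in either window, while 14.0% of all windows held it. The GC box GGGCGG also had 0 matches in either window and was in 32.7% of all windows, and the TATA box TATAAA had 0 matches beside 12.4% of all windows. These are counts of letters in 250 bases and say nothing of binding.

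The 48 libraries held 4952797 to 13702672 estimated reads on genes. Group medians were about as high in Con as in PB, at 12456679 and 12454156 in FR and 5985339 and 6269082 in FFPE. Reads on genes made up 46.6% to 51.8% of all reads in FR and 21.4% to 27.5% in FFPE. Cyp2b10, the gene used here to check the treatment labels, was at 0 to 2.45 CPM in Con libraries and at 1078 to 2289 CPM in PB libraries, with no library on the wrong side. Hepatocyte markers (Alb, Apoa1, Ttr and Serpina1a) summed to between 19050 and 85503 CPM. Among 7 marker lists, the summed levels of Con and PB livers overlapped in all 4 preparations for hepatocyte, stellate cell, endothelial cell, Kupffer cell, cholangiocyte and Schwann cell genes. The hepatocyte median was nevertheless lower in PB than in Con in each preparation, at 49036 against 66516 CPM in FR, 31428 against 45644 CPM in FR > FFPE, 36969 against 52764 CPM in FR > OH and 22818 against 27900 CPM in FFPE. Within that list, Alb passed the adjusted p in FR > FFPE (-0.59, edgeR adjusted p = 0.0314) and FR > OH (-0.61, edgeR adjusted p = 0.0168) and Apoa1 in FR > FFPE (-0.33, edgeR adjusted p = 0.00889), all under 2-fold. Ttr and Serpina1a passed in none, and Serpina1a was at 0.08 in FR, -0.00059 in FR > FFPE, 0.004 in FR > OH and 0.009 in FFPE. Most of the hepatocyte sum was Alb (mean 52030 CPM in FR Con). Kupffer cell medians were higher in PB in each preparation (352 against 310 CPM in FR) and cholangiocyte medians lower (62.3 against 89.4 CPM in FR), with no gene of either list passing. Most of the cholangiocyte sum was Spp1 (mean 77.6 CPM in FR Con), and the genes of that list went both ways. In FR, Spp1 and Sox9 were at -0.16 and -0.51, and Krt19, Krt7 and Epcam at 0.24, 0.47 and 0.10. Stellate, endothelial and Schwann cell medians went both ways. Of these lists, the endothelial gene Lyve1 passed in FR > FFPE (0.79, edgeR adjusted p = 0.0258) and the stellate gene Rgs5 in FR > OH (0.45, edgeR adjusted p = 0.0426). Both were higher in PB and under 2-fold. The neuron list was the exception to the overlap, at 7.98 to 18.0 CPM in Con and 19.6 to 35.5 CPM in PB, and only Syt1 of its 3 genes passed the filter on low counts, Snap25 being at 0 in every library. Syt1 rose under PB in all 4 preparations, by 1.08 to 1.35 on the log2 scale (edgeR adjusted p of 2.45e-06 or lower), opposite in sign to Ntrk2. The part of these markers in the results below was not tested.

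Ntrk2 rested on 7 to 355 reads per library. CPM takes no account of transcript length, so levels below are compared within a gene and not between genes. In FR, the level of Ntrk2 ran from 6.55 to 29.3 CPM with a median of 18.8 CPM in Con livers, and from 1.56 to 4.61 CPM with a median of 2.06 CPM in PB livers. The Con livers of FR > FFPE had 9.89 to 26.8 CPM (median 22.7) and the PB livers 1.21 to 8.62 CPM (median 3.19). In both of these preparations every PB liver was below every Con liver. For FR > OH, the range was 9.42 to 30.8 CPM (median 23.5) in Con and 0.867 to 4.09 CPM (median 2.72) in PB. Directly fixed FFPE tissue had 7.10 to 29.9 CPM (median 23.9) in Con and 1.04 to 7.27 CPM (median 3.65) in PB. FR > OH groups did not overlap, and in FFPE the overlap was a single PB liver, mouse 75C at 7.27 CPM, above the lowest Con liver, mouse 8C at 7.10 CPM. Mean levels (± SD, n = 6) were 17.2 ± 9.16 CPM in Con and 2.5 ± 1.16 CPM in PB for FR, 19.9 ± 6.94 and 3.76 ± 2.72 CPM for FR > FFPE, 20.8 ± 9.02 and 2.52 ± 1.24 CPM for FR > OH, and 20.9 ± 8.26 and 3.82 ± 2.18 CPM for FFPE. Ordered by level, the 4 PB means came before the 4 Con means, and neighbours within each set of 4 differed by less than the larger of their SDs. The Con mean was 6.90 times the PB mean in FR, 5.29 times in FR > FFPE, 8.22 times in FR > OH and 5.47 times in FFPE. The fitted log2 fold changes were -2.78 ± 0.42 (SE) in FR, -2.41 ± 0.41 in FR > FFPE, -3.06 ± 0.43 in FR > OH and -2.47 ± 0.44 in FFPE.

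3930402G23Rik was a gene of few reads, with 1 to 29 per library and none at 0. In FR, it ran from 0.826 to 1.62 CPM (median 0.964) in Con and from 0.169 to 0.730 CPM (median 0.244) in PB. Con livers of FR > FFPE had 1.45 to 3.29 CPM (median 1.76) and PB livers 0.194 to 0.906 CPM (median 0.409). The lowest Con liver stood above the highest PB liver in each of these preparations. FR > OH gave 0.980 to 3.34 CPM (median 1.54) in Con and 0.108 to 0.607 CPM (median 0.235) in PB. FFPE gave 0.451 to 4.21 CPM (median 1.75) in Con and 0.151 to 1.48 CPM (median 0.665) in PB. The FR > OH groups did not overlap either, but in FFPE only 3 of the 6 PB livers were below all Con livers, and the lowest Con liver there (mouse 90C) rested on 3 reads. Ordered by mean level (± SD, n = 6), the PB groups stood at 0.305 ± 0.182 CPM (FR > OH), 0.324 ± 0.204 (FR), 0.466 ± 0.260 (FR > FFPE) and 0.743 ± 0.582 (FFPE), followed by the Con groups at 1.05 ± 0.294 (FR), 1.73 ± 0.874 (FR > OH), 1.90 ± 1.29 (FFPE) and 1.95 ± 0.685 (FR > FFPE). Neighbours in this order differed by less than the larger of their SDs, the FFPE PB and FR Con groups included. The ratio of the Con to the PB mean was 3.25 in FR, 4.20 in FR > FFPE, 5.68 in FR > OH and 2.56 in FFPE. On the log2 scale the fit gave -1.63 ± 0.43 (SE), -2.05 ± 0.42, -2.42 ± 0.45 and -1.27 ± 0.44 in the same order.

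AW549542 had 2 to 83 reads per library. In FR, Con livers ranged from 1.07 to 2.47 CPM (median 1.69) and PB livers from 0.242 to 0.710 CPM (median 0.415). With FR > FFPE, the range was 2.51 to 6.32 CPM (median 4.20) in Con and 0.290 to 2.79 CPM (median 0.867) in PB. FR groups did not overlap, and in FR > FFPE the PB liver of mouse 20D at 2.79 CPM exceeded the lowest Con liver at 2.51 CPM. FR > OH livers were at 2.62 to 9.22 CPM (median 3.03) in Con and 0.809 to 2.18 CPM (median 1.15) in PB. FFPE livers were at 2.17 to 6.63 CPM (median 4.90) in Con and 0.404 to 2.69 CPM (median 1.89) in PB. FR > OH groups were apart, whereas in FFPE 5 of 6 PB livers were below all Con livers. Across the 3 embedded preparations the PB livers reached levels above those of some frozen Con livers. In order of mean level (± SD, n = 6), the PB groups were at 0.437 ± 0.196 CPM (FR), 1.11 ± 0.885 (FR > FFPE), 1.30 ± 0.534 (FR > OH) and 1.72 ± 0.754 (FFPE), and the Con groups at 1.79 ± 0.509 (FR), 4.26 ± 1.24 (FR > FFPE), 4.43 ± 2.67 (FR > OH) and 4.74 ± 1.74 (FFPE). The step from FR Con to FR > FFPE Con exceeded both SDs, and every other step was below the larger SD of its pair. Con means were 4.11 times the PB means in FR, 3.84 times in FR > FFPE, 3.42 times in FR > OH and 2.76 times in FFPE, and the fitted log2 fold changes were -2.0 ± 0.41 (SE), -1.91 ± 0.36, -1.78 ± 0.36 and -1.45 ± 0.37.

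**Figure D1:**
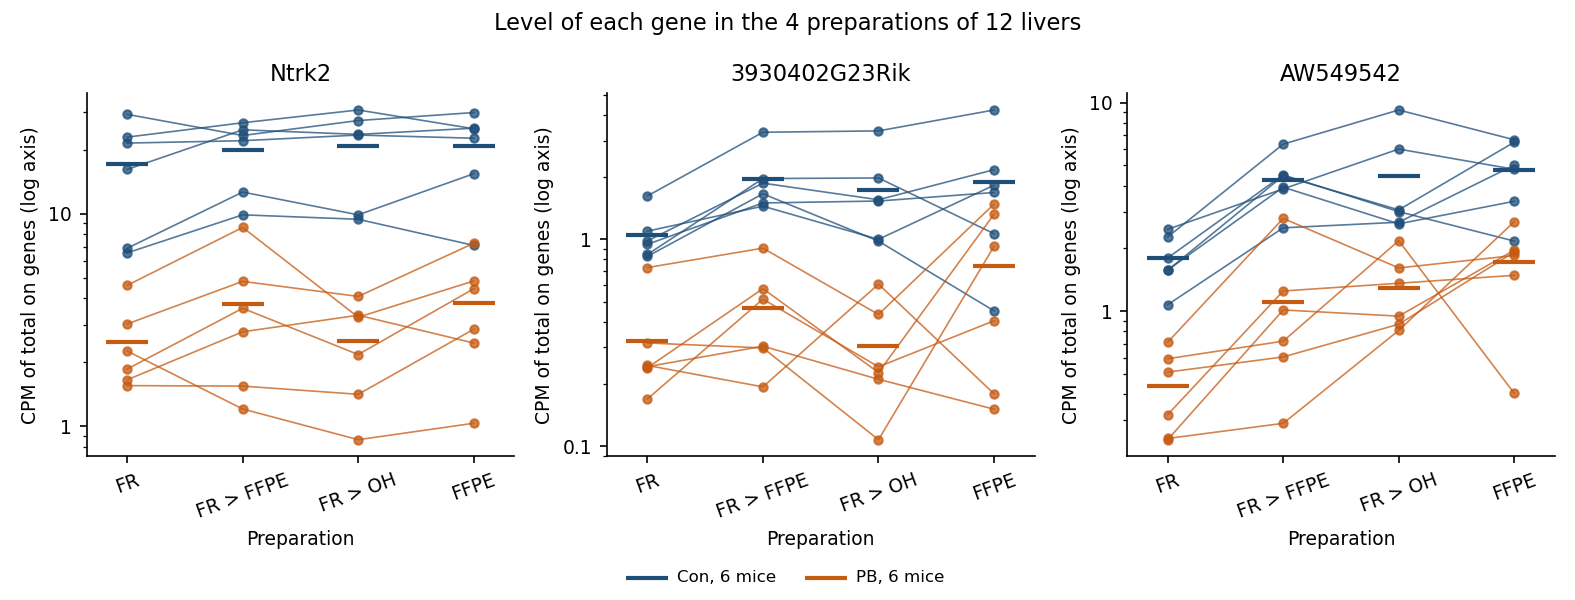
Level of Ntrk2, 3930402G23Rik and AW549542 in CPM of the total on genes (log axis) across the 4 preparations, with a thin line for each of 6 Con (blue) and 6 PB (orange) mice and a thick dash for the group mean. Con lines run above PB lines for Ntrk2 apart from a crossing at FFPE, where the lowest Con liver is at 7.10 CPM and the highest PB liver at 7.27 CPM, while the group means of AW549542 climb from FR (1.79 CPM in Con, 0.437 CPM in PB) to FFPE (4.74 and 1.72 CPM).

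A gene was called when the quasi-likelihood test of edgeR gave a Benjamini-Hochberg adjusted p under 0.05 over the 13370 genes that passed the filter on low counts and the fold change was at least 2. All 3 genes passed that filter. In FR, FR > FFPE and FR > OH all 3 were among the genes called lower under PB, which made up 0.262%, 0.157% and 0.299% of the genes tested, and in FFPE 2 of the 3 were, beside 0.269% of all genes. Since these contrasts chose the genes, nothing is read from those counts. 3930402G23Rik was the gene not called in FFPE. Sequencing lanes were not balanced over treatment. In FR > FFPE all Con livers ran in lane 3 and all PB livers in lane 4, so that lane and PB cannot be told apart there. Lane 2 held 6 Con and 2 PB livers of FR, and within it the Con mean was 5.33 times the PB mean for Ntrk2, 5.11 times for 3930402G23Rik and 4.30 times for AW549542. Lane 5 held 3 Con and 6 PB livers of FR > OH, with ratios of 7.98, 4.45 and 2.23. Lane 1 held 6 Con and 4 PB livers of FFPE, with ratios of 6.54, 2.57 and 3.09. The Con livers were thus higher on average within each lane that held both groups, while the ratio moved by more than 1.5 times for 3930402G23Rik in FR and AW549542 in FR > OH.

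The size of the PB difference was then set side by side between preparations. On the log2 scale, the Ntrk2 difference of FFPE was 0.31 above that of FR (normal 95% interval -0.89 to 1.51), that of FR > FFPE 0.37 above it (-0.77 to 1.50), and that of FR > OH lower, at -0.28 (-1.47 to 0.91). For 3930402G23Rik the corresponding values were 0.36 (-0.82 to 1.54), -0.41 (-1.68 to 0.85) and -0.79 (-2.09 to 0.50). AW549542 gave 0.55 (-0.52 to 1.63), 0.09 (-0.82 to 1.00) and 0.22 (-0.79 to 1.23). Every interval included 0, and every interval was also wide enough to include a sizeable change in either direction, so equal effects across preparations are not shown by these values. The intervals come from the fit to the 8 groups, which does not use the pairing by mouse. With mouse as a block, 3930402G23Rik was at 0.41 ± 0.49 (SE), -0.38 ± 0.52 and -0.74 ± 0.54 in the same order. AW549542 was then at 0.57 ± 0.47, 0.02 ± 0.24 and 0.29 ± 0.44.

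A total of 9 genes were called lower under PB in all 4 preparations, including Ntrk2 and AW549542. The other 7 were Pck1, the rate-limiting enzyme of gluconeogenesis, Slc25a22, a mitochondrial glutamate carrier, C4a, a complement C4 paralog, St8sia3, a sialyltransferase, Gnat1, the rod transducin alpha subunit, Dnaic1, an intermediate chain of axonemal dynein, and Ctcflos, which is named as an opposite-strand transcript of Ctcfl. In FR, Pck1 was at 1603 ± 587 CPM in Con and 623 ± 178 CPM in PB (SD, n = 6), or -1.36 ± 0.24 on the log2 scale (± SE, edgeR adjusted p = 9.15e-05). Ctcflos went from 12.3 ± 3.84 CPM to 3.37 ± 1.47 CPM in FR (-1.85 ± 0.24, edgeR adjusted p = 1.46e-07). Dnaic1 went from 6.64 ± 3.25 CPM to 1.65 ± 0.903 CPM (-1.99 ± 0.41, edgeR adjusted p = 0.000634). Over the 4 preparations, the fitted values of these 7 genes lay between -2.41 (St8sia3 in FR > FFPE) and -1.07 (C4a in FFPE), while those of Ntrk2 lay between -3.06 and -2.41. C4a shares long stretches with C4b, so its reads may be split between them, and counting by strand is not stated for Ctcflos.

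**Figure D2:**
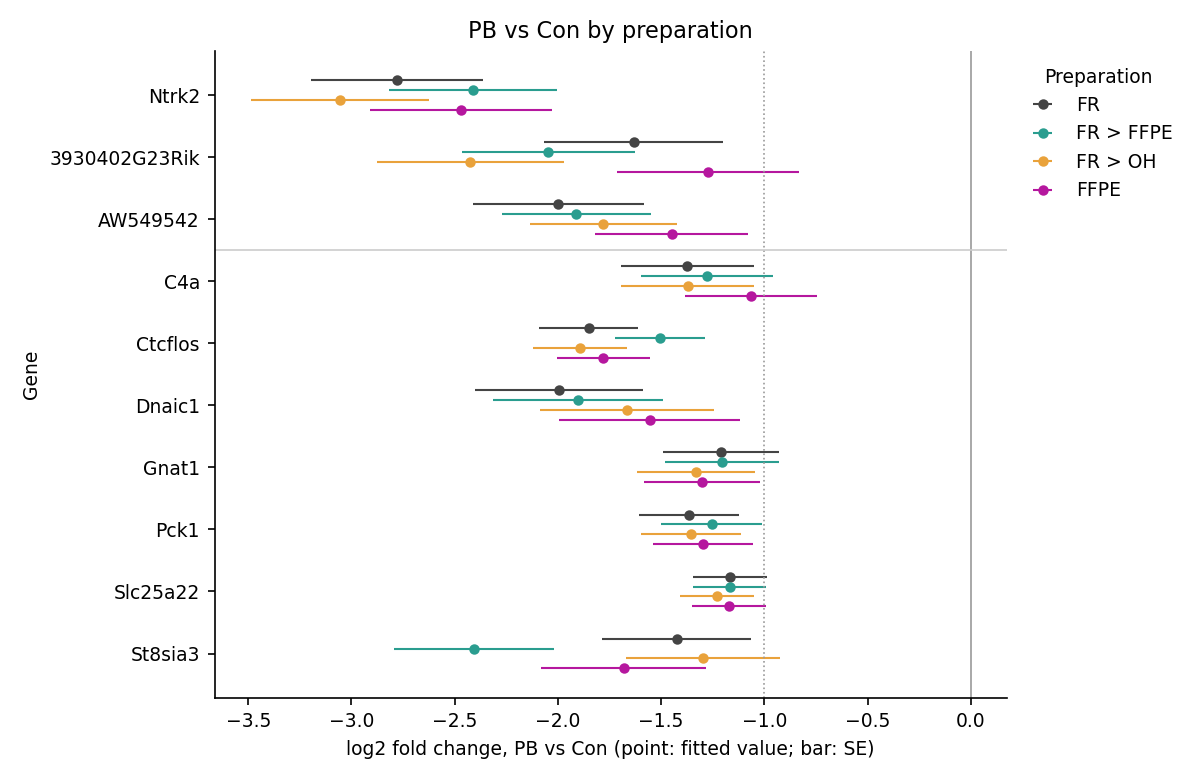
Fitted log2 fold change of PB vs Con (points, with SE bars) in each of 4 preparations (colours) for Ntrk2, 3930402G23Rik and AW549542 above the grey line and, below it, the other 7 genes called lower in all 4 preparations. The dotted line marks a 2-fold fall, and the Ntrk2 points run from -3.06 to -2.41.

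Because each liver was prepared 4 ways, the spread between mice can be set beside the spread between preparations of a mouse. For Ntrk2, 83.3% of the sum of squares of log2 CPM within the 8 groups lay between mice, more than for 90.2% of the genes tested. In contrast, mice took up 57.4% for 3930402G23Rik and 38.5% for AW549542, beside a median of 49.7% over all genes. These shares were not adjusted for the number of reads, which was lower for these 2 genes than for Ntrk2. Among Con mice, 8C had the lowest Ntrk2 of 6 in all 4 preparations (6.55 to 9.89 CPM) and 21C the next lowest in all 4 (6.88 to 15.4 CPM). Each of the other 4 Con mice was at 16.2 CPM or higher in every preparation. Mouse 8A had the highest 3930402G23Rik of the Con mice in all 4 preparations (1.62 to 4.21 CPM). Mouse 21C, low in Ntrk2, had the highest AW549542 of the Con mice in FR > FFPE, FR > OH and FFPE (6.32, 9.22 and 6.63 CPM).

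The effect of preservation was not used to choose these genes and was tested in the same fit, as the mean of the Con and the PB difference from FR. AW549542 rose in all 3 embedded preparations. Its mean over 12 livers went from 1.11 CPM in FR to 3.23 CPM in FFPE (1.68 ± 0.28 on the log2 scale, ± SE, edgeR adjusted p = 9.49e-07), 2.69 CPM in FR > FFPE (1.27 ± 0.28, edgeR adjusted p = 9.96e-05) and 2.86 CPM in FR > OH (1.41 ± 0.28, edgeR adjusted p = 2.81e-05). It was higher than in the frozen piece of the same liver in 11 of 12 mice for FFPE and in 12 of 12 for FR > FFPE and FR > OH. Calls of higher level made up 13.0%, 6.48% and 3.90% of all genes for FFPE, FR > FFPE and FR > OH. The rise passed in Con mice alone (1.41, 1.23 and 1.30 for FFPE, FR > FFPE and FR > OH) and in PB mice alone (1.96, 1.32 and 1.52). Among Con livers, no sequencing lane held both FR and an embedded preparation, so lane and preparation cannot be told apart there. Among PB livers the same held for FR > FFPE and FR > OH.

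3930402G23Rik went from 0.688 CPM in FR to 1.32 CPM in FFPE, or 0.99 ± 0.32 on the log2 scale (edgeR adjusted p = 0.00500) that fell just short of 2-fold. In FR > FFPE it was at 1.21 CPM (0.69 ± 0.31, edgeR adjusted p = 0.0490), again under 2-fold, and in FR > OH at 1.02 CPM (0.32 ± 0.33, edgeR adjusted p = 0.434). The FR > FFPE value no longer passed with TMM (0.39, adjusted p = 0.313), DESeq2 (0.39, adjusted p = 0.308) or total reads (0.31, adjusted p = 0.436), and without 1 mouse its adjusted p ran from 0.0400 to 0.110, under 0.05 in 3 of 12 fits. With lane as a term, the FFPE value was 1.33 ± 0.87 (edgeR adjusted p = 0.225). Ntrk2 went from 9.86 CPM in FR to 12.4 CPM in FFPE (0.44 ± 0.31, edgeR adjusted p = 0.195), 11.8 CPM in FR > FFPE (0.40 ± 0.29, edgeR adjusted p = 0.222) and 11.6 CPM in FR > OH (0.13 ± 0.30, edgeR adjusted p = 0.743). Normal 95% intervals of these Ntrk2 differences reached 1.04, 0.97 and 0.73. With mouse as a block, Ntrk2 passed the adjusted p in FFPE (0.45 ± 0.14, edgeR adjusted p = 0.00313) and FR > FFPE (0.40 ± 0.13, edgeR adjusted p = 0.00374), both under 2-fold, and was at 0.15 ± 0.13 in FR > OH (edgeR adjusted p = 0.344). Lanes differed with preparation, with FFPE in lanes 1 and 2, FR in 2 and 3, FR > FFPE in 3 and 4, and FR > OH in 4 and 5. Lane and preparation therefore cannot be told apart for FR > OH vs FR or for FFPE vs FR > FFPE, which share no lane. Lane 3 held Con livers of FR > FFPE and PB livers of FR. Within a treatment, lane and preparation thus cannot be told apart for FR > FFPE vs FR either. With lane as a term, Ntrk2 was at 0.82 ± 0.68 (edgeR adjusted p = 0.345) and AW549542 at 2.04 ± 0.55 (edgeR adjusted p = 0.00401) in FFPE vs FR. Con livers of FFPE all ran in lane 1 and those of FR all in lane 2. The lane term therefore rests on PB livers alone, which shared only lane 2 between FFPE and FR. Between the formalin preparations (FFPE vs FR > FFPE), the differences were 0.04 for Ntrk2, 0.31 for 3930402G23Rik and 0.41 for AW549542, with edgeR adjusted p of 0.940, 0.50 and 0.251 and with 0.531% of all genes called.

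These values move with the library size used, and FFPE libraries had a smaller share of their reads on genes, as given above. With the total on genes, the median of all 13370 genes was itself shifted by 0.32, 0.34 and 0.18 for FFPE, FR > FFPE and FR > OH. Relative to that median, AW549542 was higher by 1.36, 0.94 and 1.22, 3930402G23Rik by 0.67, 0.35 and 0.14, and Ntrk2 by 0.12, 0.07 and -0.05. When libraries were scaled to total reads instead, the median of all genes was -0.63 in FFPE, and AW549542 was still higher at 0.76 (edgeR adjusted p = 0.0121) but under 2-fold, 3930402G23Rik was at 0.06 and Ntrk2 at -0.50, the opposite sign. AW549542 in FR > FFPE also fell under 2-fold with TMM scaling (0.96, edgeR adjusted p = 0.00262) and with total reads (0.90, edgeR adjusted p = 0.00575). In FR > OH it stayed above 2-fold with TMM (1.21) and total reads (1.07). The split of all calls turned as well, from 1737 higher and 258 lower in FFPE with the total on genes to 891 and 669 with TMM and 131 and 3566 with total reads. For FR > FFPE the splits were 866 and 6, 281 and 66, and 213 and 114, and for FR > OH 521 and 25, 263 and 80, and 163 and 210, in the same order of library sizes.

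**Figure D3:**
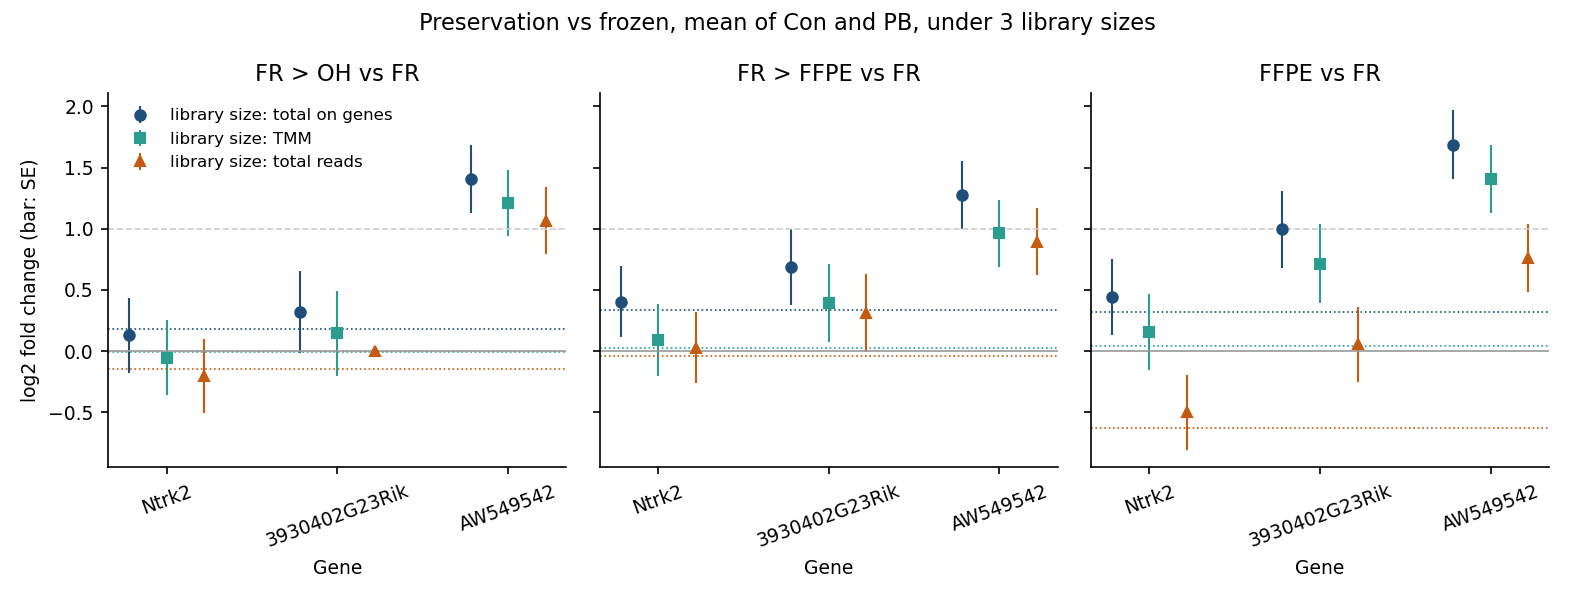
Log2 fold change of each embedded preparation against FR (points, with SE bars) for the 3 genes under 3 library sizes (symbols and colours), with a dotted line of the same colour for the median of all genes and a dashed line at 2-fold. No bar is drawn for 3930402G23Rik in FR > OH with total reads, where the SE could not be computed, and AW549542 is above the dotted line of its colour in every panel, by 0.93 to 1.38.

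An exact sign-flip permutation test over the 12 mice, two-sided and paired by mouse on log2(CPM + 0.5), gave the same order. The mean paired rise of AW549542 was 1.16 ± 0.69 (SD, n = 12), 0.85 ± 0.49 and 0.95 ± 0.37 for FFPE, FR > FFPE and FR > OH, each with an exact Holm-adjusted p of 0.00146 over the 3 preparations. For 3930402G23Rik it was 0.48 ± 0.54 in FFPE (exact Holm p = 0.0264) and 0.43 ± 0.33 in FR > FFPE (exact Holm p = 0.00732), and in FR > OH 0.21 ± 0.44 (exact Holm p = 0.116). For Ntrk2 it was 0.39 ± 0.58, 0.34 ± 0.49 and 0.15 ± 0.50, with exact Holm p of 0.129, 0.129 and 0.330, and the level was higher than in FR in 11, 9 and 8 of 12 mice. The pseudocount makes these values understate the change of low genes.

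The ratio of 2 of these genes within a library would not depend on library size without a pseudocount, but the 0.5 added to each CPM makes it do so at low levels. Its change from FR was tested in the same exact way, a comparison added after the values above had been seen and adjusted by Holm over its 9 tests. In FR > OH, AW549542 gained 0.80 ± 0.51 on the log2 scale over Ntrk2 (SD, n = 12, exact Holm p = 0.00781, higher in 11 of 12 mice) and 0.74 ± 0.58 over 3930402G23Rik (exact Holm p = 0.00439, 12 of 12 mice). In FR > FFPE the gain over Ntrk2 was 0.51 ± 0.53 (exact Holm p = 0.0547) and in FFPE 0.77 ± 0.99 (exact Holm p = 0.144), each in 11 of 12 mice. 3930402G23Rik against Ntrk2 moved by 0.07 to 0.09 in the 3 preparations (exact Holm p = 1 in each). Thus the difference in response between AW549542 and the other 2 genes was larger than the spread between mice in FR > OH, and did not pass in FR > FFPE or FFPE at this pseudocount. With a pseudocount of 0.1, the gain over Ntrk2 in FR > FFPE was 0.73 (exact Holm p = 0.0239).

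Over log2 CPM of all 48 libraries, the genes with the pattern most like each of the 3 were ranked by Pearson r, which is given as a description because these libraries share mice, lanes and the PB difference. Ntrk2 was closest to Pck1 (r = 0.84), Dnaic1 (0.82), Cadps2 (0.81), St8sia3 (0.80) and Plce1 (0.79). 3930402G23Rik was closest to Gnat1 (0.77), Ctcflos (0.76), Plce1 (0.76), 4833411C07Rik (0.75) and Il6ra (0.75). AW549542 was closest to Il6ra (0.87), Ppara (0.85), Tmco4 (0.85), Slc25a22 (0.84) and Ctcflos (0.83). Il6ra encodes the alpha chain of the interleukin-6 receptor and Ppara the nuclear receptor that drives fatty acid oxidation genes in liver, while Plce1 is a phospholipase C and Cadps2 a protein of vesicle release. Between the 3 genes themselves r was 0.65 for Ntrk2 and 3930402G23Rik, 0.68 for Ntrk2 and AW549542 and 0.63 for 3930402G23Rik and AW549542. None of the 3 was thus among the 5 closest genes of another. The PB differences of Il6ra and Ppara in FR were -0.83 ± 0.15 and -0.85 ± 0.19 (log2, ± SE), and Il6ra was 0.89 ± 0.10 higher in FFPE than in FR. These genes were picked for likeness over the same libraries, so their values are also given as a description with no test. Pck1 and Dnaic1 were at -0.05 ± 0.17 and 0.39 ± 0.30 in FFPE vs FR.

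The rest of the neurotrophin pathway was then examined with lists of ligands, receptors and Trk adaptors and kinases, 38 genes with Ntrk2. Of the other 37 genes, 29 passed the filter, and none was called under PB in any preparation with edgeR (0 of 29 each, beside 2.00% of all genes in FR, 1.87% in FR > FFPE, 2.42% in FR > OH and 1.92% in FFPE). At an unadjusted p under 0.05 there were 5, 2, 5 and 2 in the same order, but the share of all genes at that p was not taken. By adjusted p alone 1, 0, 2 and 0 of the 29 passed, beside 1130, 966, 1631 and 886 of all 13370 genes. DESeq2 and edgeR with TMM each called 0, 0, 1 and 0. The gene called in FR > OH by those fits was Shc2, an adaptor of Trk receptors (-1.79 ± 0.66 with DESeq2, adjusted p = 0.0473), and its value in the fit used here was -1.70 ± 0.59 (edgeR adjusted p = 0.0512). The median PB log2 fold change of the 29 genes was -0.04, 0.08, -0.05 and 0.02, beside 0.0037, 0.063, 0.020 and 0.0078 over all genes. Sh2b1, an adaptor that binds activated Trk receptors, had -0.42 ± 0.11 in FR (edgeR adjusted p = 0.00964) and -0.35 ± 0.11 in FR > OH (edgeR adjusted p = 0.0215), and Akt1, a kinase downstream of PI3 kinase, -0.32 ± 0.11 in FR > OH (edgeR adjusted p = 0.0376), all under 2-fold.

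Among the ligands, Bdnf, the ligand of TrkB, was at 1.20 ± 0.702 CPM in Con and 1.44 ± 0.482 CPM in PB in FR (SD, n = 6), with a PB difference of 0.26 ± 0.40 on the log2 scale (± SE, edgeR adjusted p = 0.777). Ntf3 and Ntf5 did not pass the filter, and Ntf3 stayed at or below 0.896 CPM in every library. Of the receptors, Sorcs1, Sorcs2 and Sorcs3 did not pass the filter. Ntrk3 (TrkC) was at 0.374 ± 0.073 CPM in Con and 0.217 ± 0.212 CPM in PB in FR (-0.78 ± 0.60, edgeR adjusted p = 0.498). Ngfr (p75, a receptor for all neurotrophins and a stellate cell marker) was at 7.93 ± 1.39 and 6.62 ± 1.11 CPM (-0.26 ± 0.17, edgeR adjusted p = 0.421). Sort1, the co-receptor of p75 for pro-neurotrophins, was at 53.6 ± 7.89 and 47.2 ± 11.4 CPM (-0.18 ± 0.17, edgeR adjusted p = 0.589). Apart from Ntrk2, which was chosen for its PB difference, no receptor of the list was called under PB. Sorcs3, a sortilin-family receptor named here after its values were seen, did not pass the filter but was at 0 in all 6 Con livers of FR and above 0 in all 6 PB livers, with a mean of 0.368 CPM and a highest value of 1.06 CPM. Its values in the other preparations are not given. The share of all genes that part Con from PB in this way was not taken, so nothing is read from it. With preservation, Ntrk3 rose in FFPE (1.99 ± 0.39, edgeR adjusted p = 1.32e-05), and Sh2b1 and the adaptor Frs3 rose in all 3 embedded preparations, with log2 fold changes of 1.19 to 1.59 and 1.36 to 1.76. They were the 2 of 24 adaptors and kinases called higher in each, beside 13.0%, 6.48% and 3.90% of all genes in FFPE, FR > FFPE and FR > OH. These values rest on the total on genes, with which the median of all genes was itself at 0.32, 0.34 and 0.18.

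Within 250 kb of the 3 genes, RefSeq lists 35 other genes, of which 10 are in the count table and 5 passed the filter. Around Ntrk2, 2 of 10 were in the table (Slc28a3 and 4930455J16Rik) and none passed. Around 3930402G23Rik, 3 passed: the non-coding genes 4833411C07Rik at 22.1 kb and B930025P03Rik at 42.0 kb, and Irs2, the insulin receptor substrate of hepatocytes, at 56.2 kb. Around AW549542, 2 passed, Tbx3 at 90.2 kb, a T-box transcription factor, and the non-coding gene Gm16063 at 45.6 kb. The fitted PB value of all 5 was below 0 in each of the 4 preparations, from -1.88 ± 0.61 (B930025P03Rik in FR > OH) to -0.04 ± 0.56 (Gm16063 in FFPE). The median over all genes was 0.0037 in FR, 0.063 in FR > FFPE, 0.020 in FR > OH and 0.0078 in FFPE. The share of all genes below 0 was not counted, and 3 of the 5 lie near the same gene, 3930402G23Rik. In FR > OH, 3 of the 5 were called lower, beside 0.299% of all genes: 4833411C07Rik (-1.04 ± 0.23, edgeR adjusted p = 0.00127), B930025P03Rik (-1.88 ± 0.61, edgeR adjusted p = 0.0359) and Irs2 (-1.10 ± 0.20, edgeR adjusted p = 6.92e-05). With edgeR, TMM and DESeq2 alike, 0 of 5 were called in FR, FR > FFPE and FFPE, where 3, 4 and 2 had an unadjusted p under 0.05. The share of all genes at that unadjusted p was not taken, so nothing is read from those counts.

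Irs2 was at 17.7 ± 4.33 CPM in Con and 10.4 ± 3.24 CPM in PB in FR (SD, n = 6), or -0.76 ± 0.20 on the log2 scale (± SE, edgeR adjusted p = 0.00945), and at -0.79 ± 0.19 in FR > FFPE (edgeR adjusted p = 0.00638) and -0.75 ± 0.20 in FFPE (edgeR adjusted p = 0.0125), all under 2-fold. 4833411C07Rik was at 8.44 ± 2.02 and 5.48 ± 1.44 CPM in FR (-0.62 ± 0.23, edgeR adjusted p = 0.0883). Tbx3 was at 28.4 ± 11.3 CPM in Con and 19.2 ± 5.66 CPM in PB in FR, with PB values of -0.56 to -0.28 that passed in no preparation (edgeR adjusted p from 0.265 to 0.587). Some of these neighbours also rose with preservation. Against FR, Irs2 rose by 1.36 ± 0.14 in FFPE, Tbx3 by 1.13 ± 0.21, B930025P03Rik by 1.26 ± 0.43 and Gm16063 by 1.58 ± 0.41, with edgeR adjusted p of 1.06e-11, 5.13e-06, 0.00918 and 0.000800, beside 13.0% of all genes called higher. In FR > FFPE, B930025P03Rik (1.17 ± 0.42, edgeR adjusted p = 0.0137), Gm16063 (1.24 ± 0.41, edgeR adjusted p = 0.00750) and Tbx3 (1.04 ± 0.21, edgeR adjusted p = 2.03e-05) were called, beside 6.48% of all genes. In FR > OH the values of the 5 genes ran from 0.56 to 0.89, all under 2-fold, and 4833411C07Rik stayed under 2-fold in all 3 preparations (0.64 to 0.78).

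**Figure D4:**
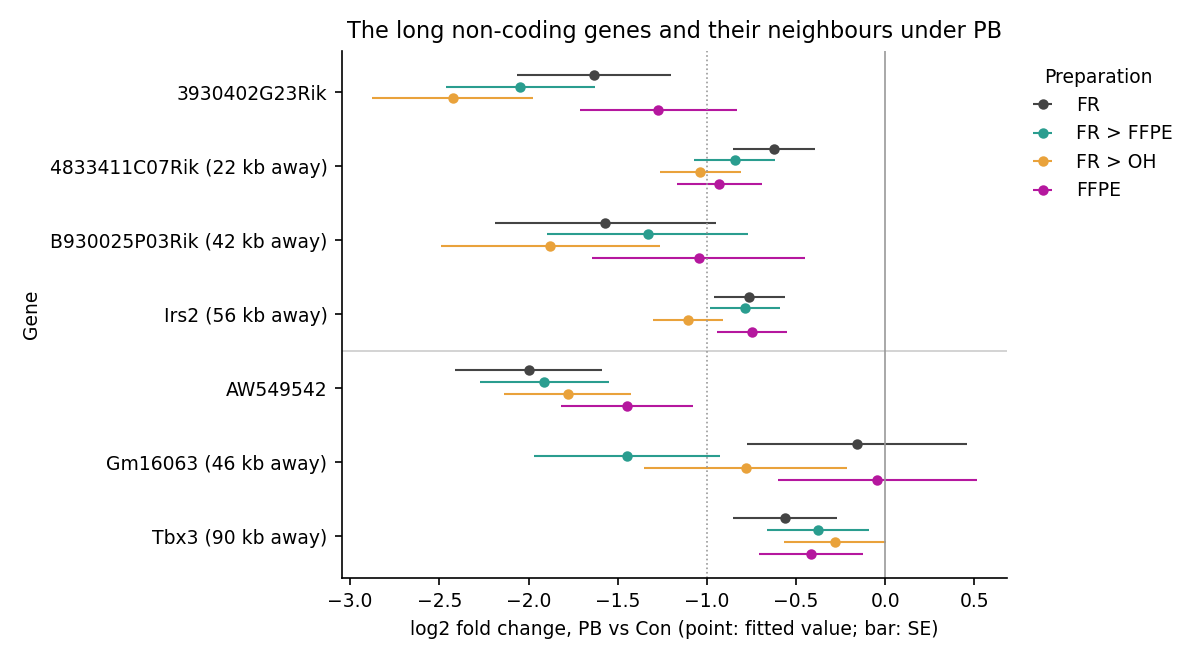
Fitted log2 fold change of PB vs Con (points, with SE bars) in 4 preparations (colours) for 3930402G23Rik and AW549542 and for the genes within 250 kb of each that passed the filter, with their distance in kb. All points of the 5 neighbours lie left of 0, and those of Irs2, from -1.10 to -0.75, lie to the right of the 3930402G23Rik points, from -2.42 to -1.27.

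Ntrk2 is also named in the TempO-Seq tables of the series, which come from rat liver (18 libraries), rat lung (18 libraries) and the mouse hepatocyte line AML12 (12 libraries). It is listed at 0 in every one of these 48 libraries. The tables list 28756, 28760 and 24540 genes, of which 2738, 2851 and 2749 had any count. No level and no test of Ntrk2 could be had from those tables, and the zeros were not read as absence of the transcript.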

How the data were processed

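Total RNA of the mouse livers was sequenced after removal of ribosomal RNA with a stranded paired-end kit. Per the study's methods and the processing notes in the labels, the authors aligned reads with STAR 2.5.3a to GRCm38 and assigned them to RefSeq transcripts in Partek with an expectation-maximization step. Whether counting used the strand is not stated. The deposited table holds the authors' estimated counts from that step, of which 92.2% are whole numbers within a tolerance of 1e-06. The deposited log2 table holds log2 CPM of 13370 genes, computed by the authors with total reads as the divisor, and served only as an alternative. The TempO-Seq tables, as deposited, also hold estimated counts.

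Here the estimates were set to whole numbers, and a gene was kept when its geometric mean exceeded 1 count (offset 0.0001), as in the study, which left 13370 of 24543. Quasi-likelihood tests of edgeR 4.0.16 in R 4.3.3 were fitted to the 8 groups of 6 libraries, with the total over kept genes as library size and no further scaling, and were tested on simulated data. Levels are CPM of the total over all genes. Same-numbered libraries come from the same mouse, and their deviations from group means correlated in all 72 pairs at over 0.1 (median r = 0.37), so a fit with mouse as a block was an alternative. Exact sign-flip tests used all 4096 sign changes, and 0.000488 is the smallest p they allow. The members and all gene lists were chosen with earlier results of these data known. Genes were named if they were 1 of the 3, among the 5 most alike, called lower under PB in all 4 preparations, neighbours within 250 kb that passed the filter, or neurotrophin ligands, receptors or called members, and Cyp2b10. Values chosen otherwise are named as such. Some members of the neurotrophin lists, counted in the list totals, are not reported here by name. Sequences came from RefSeq (GRCm38.p6).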

Additional observations from a re-analysis of the deposited data

Results flagged for a closer look

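Each of the 3 genes was examined in 8 groups of 6 libraries for a highest or lowest library that stood far from the others, which makes 24 groups, and chance alone flags about 1 in 20. A total of 3 were found, all for 3930402G23Rik and all at the high end. In FR Con, mouse 8A was at 1.62 CPM, with the next library at 1.09 CPM and a group median of 0.964 CPM. In FR > FFPE Con, the same mouse was at 3.29 CPM, with the next at 1.97 CPM and a median of 1.76 CPM. In FR PB, mouse 20B was at 0.730 CPM, with the next at 0.316 CPM and a median of 0.244 CPM.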

How the results depend on the processing

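The fit with mouse as a replicate block changed no call that needs both the adjusted p and 2-fold, but brought Ntrk2 under an adjusted p of 0.05 in FFPE and FR > FFPE (0.00313 and 0.00374): AW549542 was at 1.71, 1.27 and 1.38 for FFPE, FR > FFPE and FR > OH, and Ntrk2 at 0.45, 0.40 and 0.15 (log2, vs FR). Leaving out 1 mouse at a time gave 0.85 to 1.07 for 3930402G23Rik in FFPE vs FR, which reached 2-fold without mouse 18B, 20B, 21C, 80B, 82B or 90C, and -0.066 to 0.21 for Ntrk2 in FFPE vs FR > FFPE, below 0 without mouse 75C, 80B or 90C. AW549542 stayed called against FR in each of these fits, between 1.11 and 1.82 over the 3 preparations.

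Against FR, AW549542 lost its call only through the 2-fold requirement in some settings: in FFPE with limma on the authors' log2 CPM (0.68), total reads (0.76) and the exact test with pseudocount 1 (0.93); in FR > FFPE with DESeq2 (0.97), TMM (0.96), limma (0.80), total reads (0.90) and the exact test with pseudocount 0.5 (0.85) or 1 (0.69); and under FR > OH with the exact test (0.95 and 0.76). Signs turned, for differences that had not been called, with limma for 3930402G23Rik in FFPE (-0.23) and FR > OH (-0.082) and for Ntrk2 in FFPE (-0.53), FR > FFPE (-0.019) and FR > OH (-0.19). Ntrk2 also turned with total reads in FFPE (-0.50) and FR > OH (-0.20), and in FR > OH with TMM (-0.055) and DESeq2 (-0.050). For FFPE vs FR > FFPE, limma and total reads gave -0.51 and -0.53 for Ntrk2, -0.54 and -0.26 for 3930402G23Rik, and -0.13 and -0.14 for AW549542. The limma values and the total reads share a divisor.

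PB differences kept their sign in all settings, and within a lane moved to -2.35 for 3930402G23Rik in FR and -1.16 for AW549542 in FR > OH. By adjusted p alone, 1, 2 and 2 of the 5 neighbours passed in FR, FR > FFPE and FFPE, beside 1130, 966 and 886 of all 13370 genes. Of the 29 neurotrophin genes, 1 passed in FR and 2 in FR > OH, beside 1130 and 1631 of all genes. In FR > OH, TMM and DESeq2 each called 1 of the 29. The gain of AW549542 over Ntrk2 in FR > FFPE passed with pseudocount 0.1 (0.73, exact Holm p = 0.0239). Few reads limit 3930402G23Rik, where 1 read more or less moves the lowest libraries most. Lane could be fitted as a term only for FFPE vs FR, resting on the lanes of PB livers, and there 3930402G23Rik no longer passed the adjusted p (1.33, edgeR adjusted p = 0.225). The planned TempO-Seq settings were not run because Ntrk2 is listed at 0 in those tables.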
